A study of Mus musculus with 7 samples.

Results

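The BALB/c array of pancreatic lymph node against mesenteric lymph node is set here beside the 3 other arrays of the same pair of nodes, from FVB, NOD and NOD.B10 mice. These 4 arrays were chosen by their titles from 7 arrays in the series. Every sample was pooled tissue of 5 female mice aged 12 weeks. On each array the pancreatic lymph node (PLN) was labelled with the red dye Cy5 and the mesenteric lymph node (MLN) with the green dye Cy3, and no array had the dyes exchanged. The other 3 arrays of the series set the PLN of FVB, NOD and NOD.B10 against the inguinal lymph node (ILN). The study's comparison of a node that drains the pancreas with one that drains the gut was thus made once in BALB/c, from 1 pool per node. BALB/c and FVB are inbred strains that do not develop autoimmune diabetes, NOD mice do, and NOD.B10 mice carry another major histocompatibility complex (MHC) on the NOD background. For NOD.B10 the strain entry of the labels reads NOD while title and source name read NOD.B10, and the latter were used.

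The PLN lies against the pancreas and receives its lymph, so its RNA can hold transcripts of pancreatic tissue beside those of lymphocytes and stroma. Acinar cells of the exocrine pancreas make the digestive zymogens (trypsinogens, elastases, carboxypeptidases, amylase and lipases) at very high RNA levels, whereas the endocrine islets make insulin and other hormones. The MLN lies in the mesentery of the gut and carries stroma that produces retinoic acid and the mucosal addressin Madcam1.

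For each of 27771 genes and unnamed probes, 14883 of them with a gene symbol, the log2 ratio of PLN to MLN on the BALB/c array was set against the range of the ratios of FVB, NOD and NOD.B10. A gene was counted as outside when the BALB/c ratio lay at least 2-fold (1 on the log2 scale) beyond that range. The normalized log2 level of each dye was then read separately, to see which node of BALB/c stood apart. Because BALB/c is represented by 1 array, all statements are descriptions of these pools and no test was made. The file headers name 1 scanner for BALB/c and NOD and another for FVB and NOD.B10, so the difference from NOD, the array from the same scanner, is given beside the main results. The median spot signal over the 4 arrays was 68.0 to 105 intensity units for PLN and 86.1 to 142 for MLN. Between 47.1% and 59.1% of spots were well above background for PLN and between 50.8% and 83.2% for MLN.

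The BALB/c ratio was at least 2-fold above the range in 13 genes (0.0468% of all) and at least 2-fold below it in 57 genes (0.205%). The 57 low genes were dominated by products of the exocrine pancreas: 32 belong to the list of acinar genes, 6 are other kallikreins, and 5 are unnamed probes whose descriptions name the pancreas or its secretory products. Most of the 13 high genes were haemoglobin, red cell or neutrophil genes: 4 belong to the erythroid list, 2 more are described as globin or erythroid, and 3 belong to the neutrophil list. Just outside the limit lay Mettl7a1 (1.13 above the range) and Ppp1r14c and Terc (at -1.17 and -1.04), and just inside lay Car2 (0.89 above) and Syt6 and Cpb2 (both at -0.96). At any distance the BALB/c ratio lay above the range in 23.6% of genes and below it in 22.8%. Over all genes, which are not independent, the BALB/c ratios correlated with those of FVB at r = 0.16, of NOD at 0.34 and of NOD.B10 at 0.14. Among FVB, NOD and NOD.B10 themselves r was 0.52 to 0.65. Without the genes outside the range, the acinar list and the kallikreins, r of BALB/c was 0.18 with FVB, 0.48 with NOD and 0.17 with NOD.B10. For the same genes r was 0.35 for FVB with NOD, 0.36 for FVB with NOD.B10 and 0.25 for NOD with NOD.B10. The highest r was then that of BALB/c with NOD, from the same scanner.

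**Figure D1:**
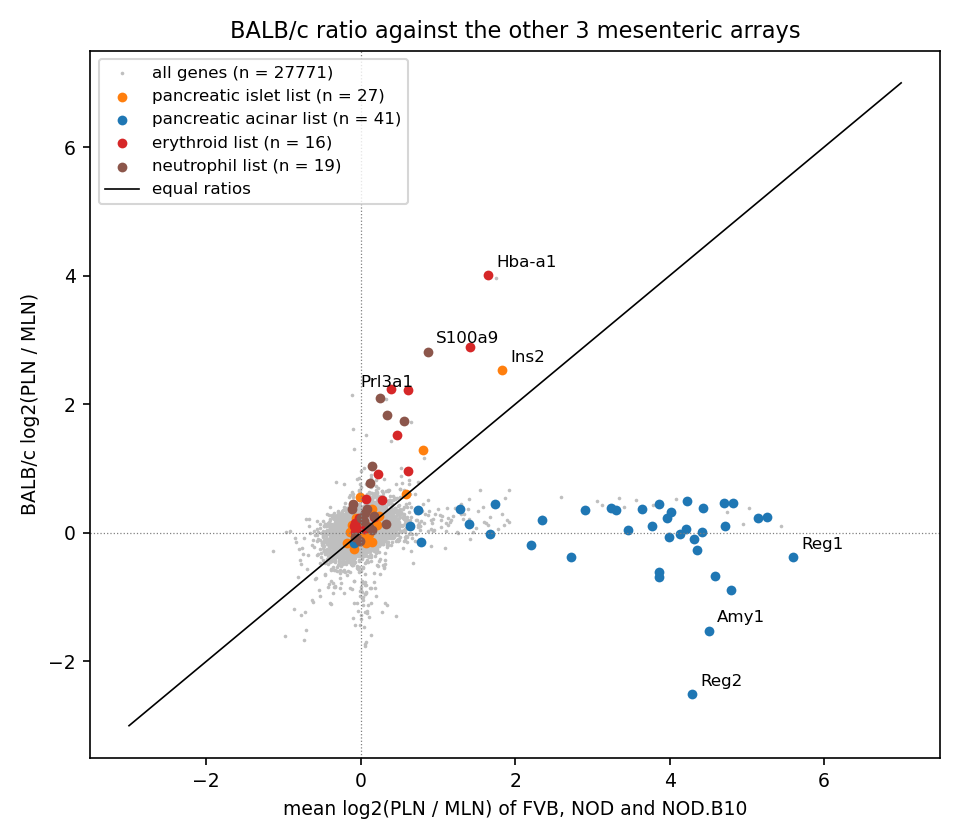
Log2 ratio of PLN to MLN on the BALB/c array (vertical) against the mean of the other 3 mesenteric arrays (horizontal), 1 point per gene, with members of 4 gene lists coloured and equality drawn as a line. The acinar genes spread to the right at BALB/c ratios near 0, while haemoglobin and neutrophil genes lie above the line.

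The digestive enzyme genes, which were far higher in PLN than in MLN in the other 3 strains, had BALB/c ratios near 0 after loess normalization, and a median of 1.25 with median centring alone. Over the 41 acinar genes measured, the median log2 ratio was 0.11 in BALB/c, 2.85 in FVB, 4.73 in NOD and 3.85 in NOD.B10. The BALB/c ratio was at least 2-fold below the range in 32 of the 41 (0.205% of all genes) and above it by that distance in 0 (0.0468%). It lay within 0.5 of 0 in 35 of them, and ranged from -2.51 for Reg2 to 0.49 for Cel, a lipase. Among themselves the members were more alike in BALB/c, where their ratios had an SD of 0.58 over genes, than in FVB (1.20), NOD (1.67) or NOD.B10 (2.03).

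The promoter of Reg1, the gene farthest below the range, is shown because the acinar genes of the list lay below the range together. Reg1 encodes regenerating protein 1, a secreted protein of acinar cells. Transcription of acinar genes is driven by the PTF1 complex, whose pancreatic subunit Ptf1a binds an E-box and whose partner Rbpjl binds a neighbouring element. The sequence is from RefSeq (GRCm38.p6, chr6:78425733-78426032, plus strand, 250 bases before to 50 after the gene start), and capitals mark the letters TTCCCA on either strand (TGGGAA on the other) and the E-box CANNTG.
Reg1: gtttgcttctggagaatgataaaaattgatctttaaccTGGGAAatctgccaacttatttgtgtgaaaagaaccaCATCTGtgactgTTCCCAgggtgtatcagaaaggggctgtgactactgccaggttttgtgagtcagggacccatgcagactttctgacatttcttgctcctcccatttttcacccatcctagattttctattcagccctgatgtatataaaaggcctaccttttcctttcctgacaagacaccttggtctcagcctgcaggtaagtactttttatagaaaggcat
The letters TTCCCA stood in 21 of 32 acinar promoters that RefSeq matched (65.6%) and in 25.5% of 27025 promoters of the same length. CANNTG stood in 87.5% of the 32 and in 72.1% of all, and both together in 56.2% and 18.9%. The 2 motifs do not overlap in the stretch shown, and a match is a description of letters, not a bound site.

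Reg1 had a log2 ratio of -0.38 in BALB/c, 4.66 in FVB, 5.32 in NOD and 6.82 in NOD.B10. Its mean spot signal for MLN, before any correction, was 8669 in BALB/c, 1662 in FVB, 767 in NOD and 175 in NOD.B10. For PLN it was 19990 in BALB/c, 50421 in FVB, 65230 in NOD, where the spot was saturated, and 53272 in NOD.B10. The BALB/c pools thus stood apart for this gene by both the strongest MLN spot and the weakest PLN spot, and only the MLN difference remained 2-fold outside the range after scaling.

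Saturation bears on the other abundant zymogens. A saturated spot reads the ceiling of the scanner, so that the PLN level is a lower limit there, and so is the ratio. The PLN spot was saturated for 10 of the 41 acinar genes in BALB/c, 16 in FVB, 18 in NOD and 11 in NOD.B10, and the MLN spot for 0 on all 4 arrays. Of the 16 acinar genes with a BALB/c ratio below 0, the BALB/c PLN spot was saturated for 8, Amy1, Cela3b, Prss3, Sycn and Cpa1 among them, and for these the sign of the ratio is not settled. Amy1, an amylase, had ratios of -1.52, 3.09, 4.82 and 5.63 in BALB/c, FVB, NOD and NOD.B10, all of them lower limits. Its MLN levels, which were not saturated, were 16.71, 11.68, 12.50 and 9.39, and BALB/c was the highest by 4.21.

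The other zymogens farthest below the range followed the same pattern at the MLN. Prss3, a trypsinogen, had MLN levels of 16.31, 11.33, 12.67 and 8.78 in BALB/c, FVB, NOD and NOD.B10. Cela3b, an elastase, had MLN levels of 16.17, 11.86, 12.35 and 9.12, and Sycn, a protein of zymogen granules, 16.14, 11.94, 13.32 and 10.02. BALB/c was the highest of the 4 for each by at least 2.82. Try5, a second trypsinogen (15.76, 11.12, 12.77 and 10.17), and Cpa1, a carboxypeptidase (15.96, 12.80, 14.15 and 11.32), were highest in BALB/c MLN too. Trypsinogens, amylases and elastases are families of related genes, so that a probe may also read another member.

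The 22 acinar genes saturated on none of the 4 arrays had median ratios of 0.21 in BALB/c, 1.98 in FVB, 3.91 in NOD and 2.02 in NOD.B10, and 13 of them were at least 2-fold below the range. Relative to the mean of the other strains, their median was 1.12 in MLN and -0.73 in PLN. Dmbt1, a secreted scavenger receptor protein, had ratios of 0.01, 3.74, 5.64 and 3.87. Its PLN levels were 10.94 in BALB/c, 12.14 in FVB, 13.89 in NOD and 11.19 in NOD.B10, and its MLN levels 10.93, 8.41, 8.25 and 7.32. BALB/c was thus the lowest of the 4 in PLN, at -0.25 from NOD.B10, and the highest in MLN by 2.52. Gp2, the main membrane glycoprotein of zymogen granules, was at least 2-fold outside in both nodes of the 4 mesenteric arrays. Its PLN levels were 10.35, 12.47, 12.83 and 11.51, and its MLN levels 10.42, 9.04, 8.0 and 7.80. On the inguinal arrays, the PLN of FVB, NOD and NOD.B10 had 12.69, 10.21 and 10.46 for Gp2. For Dmbt1 it had 12.19, 9.85 and 10.55. With those PLN channels included, BALB/c PLN was not the lowest for either gene. Pnliprp1, a lipase-related protein, had ratios of 0.24, 3.97, 6.12 and 5.70, with a saturated PLN spot on 2 of the other arrays, and its MLN level was 3.55 above that of any other strain.

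By the separate levels, 28 of the 32 acinar genes below the range were outside by at least 2-fold in MLN alone. Of the rest, 1 (Cela2a, an elastase) was outside in PLN alone, 1 (Gp2) in both and 2 in neither. Cela1, an elastase, was counted in MLN alone. Its MLN signal before any correction was 2569 in BALB/c, 4886 in FVB, 314 in NOD and 296 in NOD.B10. Its PLN signal was 8455, 65242, 58256 and 39259 in the same order, with the FVB spot saturated. Before scaling, Cela1 in BALB/c thus had the weakest PLN spot but not the strongest MLN spot. For Cpa1 the MLN signal was 26506, 13766, 4665 and 1491. A BALB/c MLN level at least 2-fold above the range was found in 0.364% of all genes, and in 29 of the 41 acinar genes. The median MLN level of the 41 was 13.14 in BALB/c, 10.36 in FVB, 10.77 in NOD and 8.49 in NOD.B10. In the inguinal node it was 8.5 in FVB, 9.21 in NOD and 8.41 in NOD.B10, and the BALB/c MLN exceeded all 3 for 39 of the 41 genes. For how many of all genes it did so was not counted. The median PLN level was 13.46 in BALB/c, 13.98 in FVB, 16.55 in NOD and 13.28 in NOD.B10, so that BALB/c PLN lay inside the range, and 2 of the 41 genes were at least 2-fold below it in PLN (0.0756% of all genes). The BALB/c MLN level was above the BALB/c PLN level for 16 of the 41 genes and above the NOD.B10 PLN level for 27.

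**Figure D2:**
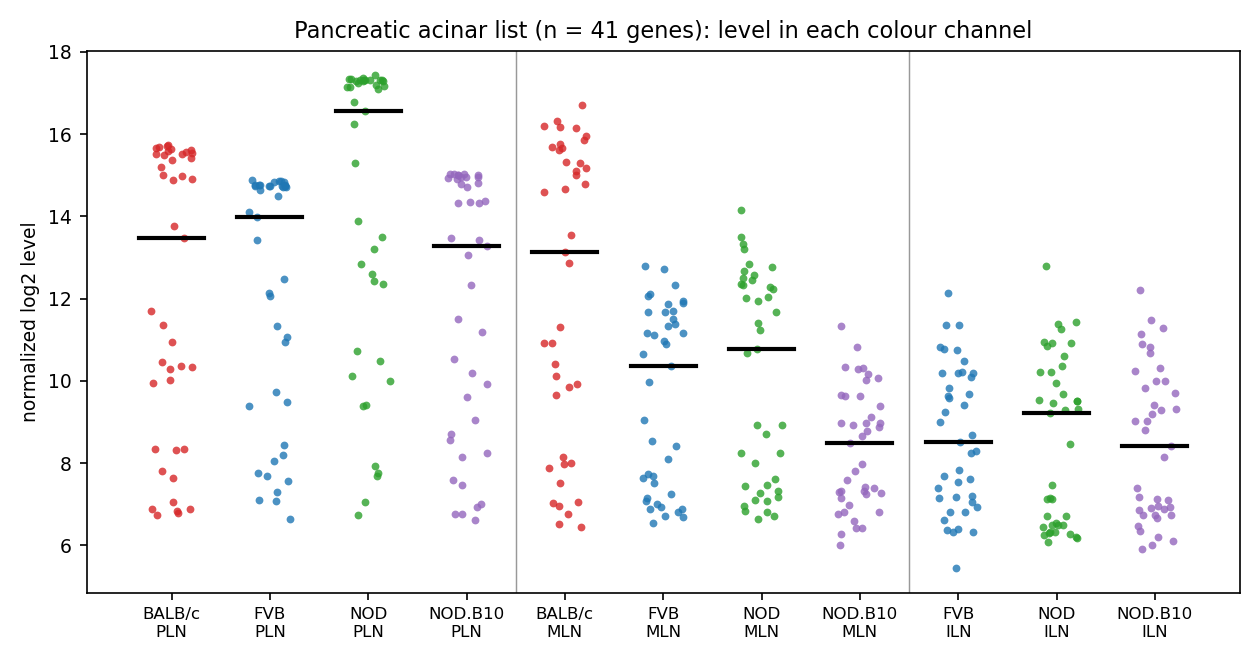
Normalized log2 level of each of the 41 acinar genes in each dye channel of the 4 mesenteric arrays and in the ILN channel of the 3 inguinal arrays, 1 point per gene, with a bar at the median. The median of BALB/c MLN (13.14) stands above the other MLN and ILN medians (8.41 to 10.77), and the flat upper edge of the PLN columns is the saturation of the spots.

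Against NOD alone, from the same scanner, both nodes of BALB/c differed. The median over the 41 acinar genes of BALB/c minus NOD was 2.32 in MLN and -1.87 in PLN. By this comparison 30 of the 32 genes were outside by at least 2-fold in both nodes, 2 in PLN alone and 0 in MLN alone. The PLN part rests on 1 NOD channel, with an acinar median of 16.55. On the NOD inguinal array, from the other scanner, the PLN median was 11.82, below the 13.46 of BALB/c. With the PLN channels of the inguinal arrays added to the range, 29 of the 32 were attributed to MLN. By that setting 0 were attributed to PLN, 0 to both and 3 to neither. With saturated probes left out, 15 acinar genes were below the range, 11 of them by MLN, 1 by PLN, 1 by both and 2 by neither, with a median difference from the mean of the other strains of 2.50 in MLN and -1.16 in PLN. With levels not scaled between arrays, 21 of the 32 were attributed to MLN, 3 to PLN, 1 to both and 7 to neither, and the MLN level of BALB/c was still the highest of the 4 for 28. In bulk tissue a different number of acinar cells, a different amount of RNA per cell and free RNA cannot be told apart.

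The value near 0 depends on removing the dye trend of each array. With each array only centred on its median, the BALB/c median over the acinar genes was 1.25 in place of 0.11. On that scale, however, the brightest genes of the BALB/c array outside the list (535 genes from the 98th percentile of mean level) also had a median ratio of 1.31, and after loess it was -0.07. Relative to the mean of the other strains, the acinar median was -3.73 with loess and -3.42 with median centring.

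Transcription factors of acinar cells are also on the list. Of the 9 acinar genes not 2-fold below the range, Ptf1a, the pancreatic subunit of PTF1, had ratios of -0.13, 0.85, 0.87 and 0.65 in BALB/c, FVB, NOD and NOD.B10. Bhlha15 (Mist1), which maintains the secretory machinery, had 0.44, 1.76, 2.12 and 1.34. Rbpjl had 0.37, 1.16, 2.69 and 0.01, and was inside the range. In the regenerating family Reg3g had ratios of 0.23, -0.04, 0.10 and -0.06, whereas Reg2 had -2.51, 0.86, 6.38 and 5.64, with MLN levels of 12.86, 6.89, 8.92 and 7.41 and PLN levels of 10.36, 7.75, 15.30 and 13.06. For Reg2 the BALB/c PLN level lay between that of FVB and that of NOD.B10, and the BALB/c MLN was the highest by 3.95.

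The kallikreins are secreted serine proteases of salivary gland and pancreas. Outside the acinar list 27 kallikreins and kallikrein-described probes were measured. Of these, 6 were at least 2-fold below the range and 0 above (0.205% and 0.0468% of all genes). Of the other 21, 8 were below it at any distance (22.8% of all genes), 2 above (23.6%) and 11 inside. The median ratio of these 21 was -0.06 in BALB/c and -0.02 to 0.01 in the other strains. In the 6 past the limit, which their ratios chose, the BALB/c ratio was 0.38 to 0.54, while the other arrays gave 2.08 to 5.63. All 6 were attributed to MLN, where BALB/c exceeded the mean of the other strains by 2.17 to 4.23, while in PLN BALB/c minus that mean was -0.94 to -0.25. Klk1b5, the farthest outside, had ratios of 0.38, 4.49, 5.63 and 4.99 and MLN levels of 13.86, 10.21, 10.13 and 8.52 in BALB/c, FVB, NOD and NOD.B10, none from a saturated spot. The mouse kallikreins are a cluster of similar genes and their probes may read each other's RNA.

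No islet gene measured had a BALB/c ratio 2-fold outside the range. Of the 27, 0 lay that far outside, 7 were above it at any distance (23.6% of all genes), 5 below (22.8%) and 15 inside. Ins2, an insulin gene, had ratios of 2.53 in BALB/c, 2.35 in FVB, 2.90 in NOD and 0.26 in NOD.B10. Its raw PLN signal was 1760, 1305, 1344 and 111, and its raw MLN signal 149, 195, 119 and 118. BALB/c thus had an insulin ratio inside the range, with PLN well above MLN, on the array on which the acinar median ratio was 0.11 after loess. Iapp, the islet amyloid peptide, had ratios of 0.56, 0.08, -0.01 and -0.11.

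Over all 57 genes below the range, which their ratios chose, 46 were attributed to MLN alone, 1 to PLN alone, 2 to both and 8 to neither. The BALB/c MLN level was the highest of the 4 for 57. Choice by a low ratio itself favours a high MLN or a low PLN level. A low ratio together with an MLN level at least 2-fold above the range was found in 0.173% of all genes. The 14 genes outside the acinar list, the kallikreins and the probes described as pancreatic were of mixed kinds. Krt18, a keratin of simple epithelia such as acini and ducts, is on the duct epithelium and mesothelium lists. It had ratios of 0.25, 2.05, 3.16 and 1.86 and MLN levels of 8.53, 7.15, 7.38 and 6.84. Nupr1, a stress-induced nuclear protein, had ratios of 0.50, 2.96, 3.38 and 2.83, and Mt2, a metallothionein, 0.56, 2.91, 2.79 and 2.09. In these 3 the BALB/c ratio was also above 0, but lower than in the other strains. The remaining 11 of these 14 genes had a ratio of -1.75 to -1.10 in BALB/c, against -0.06 to 0.21 in FVB, -0.56 to 0.42 in NOD and -0.03 to 1.02 in NOD.B10. All 11 had a higher MLN level in BALB/c than in any other strain, and 7 of them carry no symbol. Alb, the plasma albumin gene, was one of them: its ratios were -1.46, -0.04, 0.19 and -0.03, and its raw MLN signal was 163 in BALB/c, 144 in FVB, 79.0 in NOD and 112 in NOD.B10, close to the dim end of the array.

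**Figure D3:**
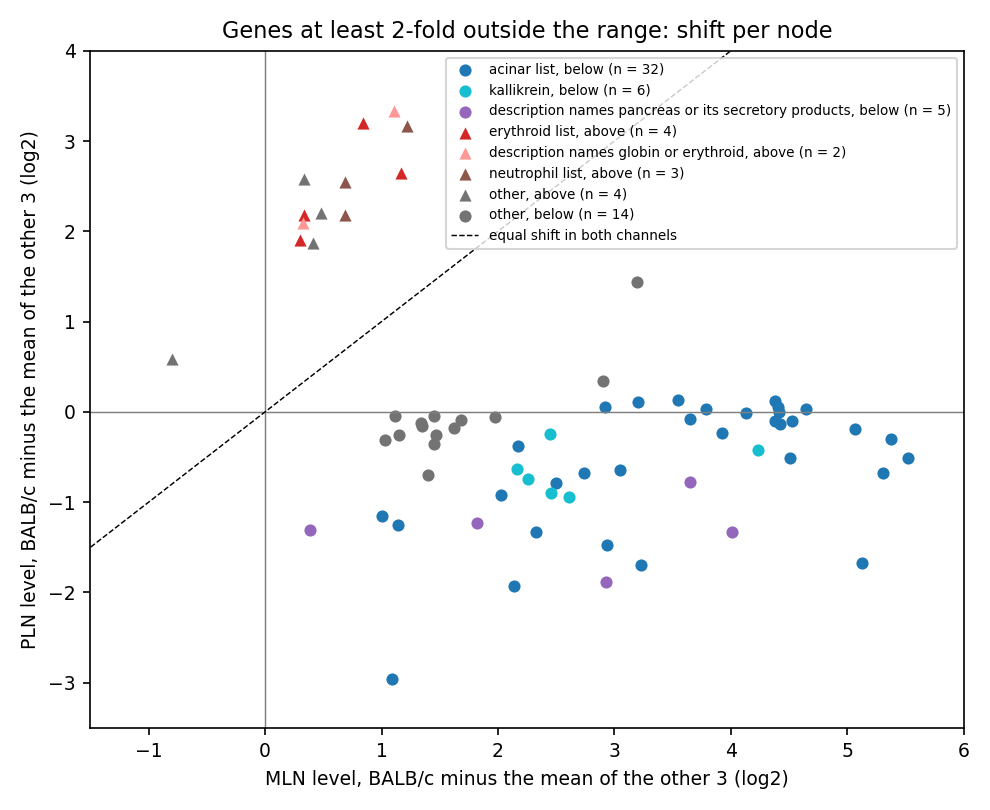
Level in BALB/c minus the mean of the other 3 strains for MLN (horizontal) and PLN (vertical), in log2, for the 70 genes at least 2-fold outside the range, by category. Genes below the range (circles) lie to the right, at higher BALB/c MLN levels. Genes above the range (triangles) lie at the top, at higher BALB/c PLN levels. Mettl7a1 lies lower than the other triangles, at 0.59 in PLN and -0.80 in MLN.

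Haemoglobin and red cell genes were higher in the PLN of BALB/c, relative to its MLN, than in the other strains. Hba-a1, an alpha-globin gene, had ratios of 4.01 in BALB/c, 1.33 in FVB, 2.01 in NOD and 1.62 in NOD.B10. Its raw PLN signal was 45217, 9805, 16606 and 5690, and its raw MLN signal 985, 3433, 1922 and 608. BALB/c had the strongest PLN spot of the 4, while its MLN spot lay inside the range. Hbb-bt, a beta-globin gene, had ratios of 2.89, 1.58, 1.38 and 1.28. Its probe was saturated in BALB/c PLN, so the ratio there is a lower limit. The globin probes may read several globin genes.

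Genes of the red cell lineage other than globins showed the same direction. Alas2, the erythroid enzyme of haem synthesis, had ratios of 2.23, 0.59, 0.64 and 0.63, PLN levels of 9.63, 7.6, 8.32 and 7.25 and MLN levels of 7.40, 7.02, 7.68 and 6.62. Slc4a1, the anion exchanger band 3 of the red cell membrane, had ratios of 2.23, 0.53, -0.00 and 0.65, and Eraf, a chaperone of alpha-haemoglobin, 2.09, 0.71, -0.00 and 0.28. In all of these BALB/c PLN was the highest of the 4 PLN pools and BALB/c MLN lay inside the MLN range. Of the 16 erythroid genes measured, 4 were at least 2-fold above the range (0.0468% of all genes). At any distance 13 were above it (23.6%) and 0 below (22.8%). In PLN, 2 of the 16 were at least 2-fold above the range (0.22% of all genes). The BALB/c PLN level was the highest of the 4 for 16 of the 16, against 29.8% of all genes, and the MLN level for 7 of the 16, against 29.1%.

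The promoter of Alas2 is shown as that of an erythroid gene at least 2-fold above the range. GATA1, the main transcription factor of the erythroid lineage, recognises GATA elements. The sequence is from RefSeq (GRCm38.p6, chrX:150547167-150547466, plus strand), and capitals mark the letters AGATAA on either strand (TTATCT on the other).
Alas2: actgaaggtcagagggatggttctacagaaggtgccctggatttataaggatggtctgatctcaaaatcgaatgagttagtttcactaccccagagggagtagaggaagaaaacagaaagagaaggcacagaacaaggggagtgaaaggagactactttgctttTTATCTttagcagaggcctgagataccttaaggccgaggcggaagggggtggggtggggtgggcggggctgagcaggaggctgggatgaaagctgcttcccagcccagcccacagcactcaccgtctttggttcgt
AGATAA stood in 3 of 11 erythroid promoters that RefSeq matched (27.3%), in 9 of the 32 acinar promoters (28.1%) and in 11.4% of all 27025, so that its share in the erythroid promoters was no higher than in the acinar ones. The Hba-a1 promoter window held 0 matches of AGATAA. It does hold the letters TGATAA, and other forms of the GATA element were not counted in any promoter.

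Neutrophil genes were high in BALB/c PLN beside the red cell genes. S100a9 and S100a8 together form calprotectin, the most abundant cytosolic protein of neutrophils. S100a9 had ratios of 2.82, 0.57, 0.85 and 1.17 in BALB/c, FVB, NOD and NOD.B10, with PLN levels of 12.56, 8.63, 10.28 and 9.27 and MLN levels of 9.74, 8.06, 9.43 and 8.09. S100a8 had ratios of 2.10, -0.04, 0.56 and 0.23, and Camp, a granule antimicrobial peptide, 1.84, 0.08, 0.51 and 0.44. In all 3 the BALB/c PLN exceeded every other PLN by at least 1.52, and the BALB/c MLN every other MLN by at most 0.42. Of 19 neutrophil genes measured, 3 were at least 2-fold above the range (0.0468% of all genes), 13 above it at any distance (23.6%) and 1 below (22.8%). Mpo (1.74, 0.36, 0.40 and 0.93) and Ltf (1.04, 0.03, 0.21 and 0.20), a granule peroxidase and lactoferrin, came next.

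Of the 13 genes above the range, which their ratios chose, 10 were attributed to PLN and 3 (Hba-a1, Hbb-bt and Mettl7a1) to neither node. The BALB/c PLN level was the highest of the 4 in all 13. Choice by a high ratio itself favours a high PLN or a low MLN level, so the level counts are descriptions only. For the 7 of them in the erythroid and neutrophil lists, the median PLN level was 9.82 in BALB/c, 7.69 in FVB, 8.32 in NOD and 7.25 in NOD.B10, and 7 of 7 were higher than in NOD. The median MLN level was 7.72, 7.15, 8.22 and 6.88, and 3 of 7 were higher than in NOD. The share of blood in a dissected node was not measured, and its part in these values was not tested.

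**Figure D4:**
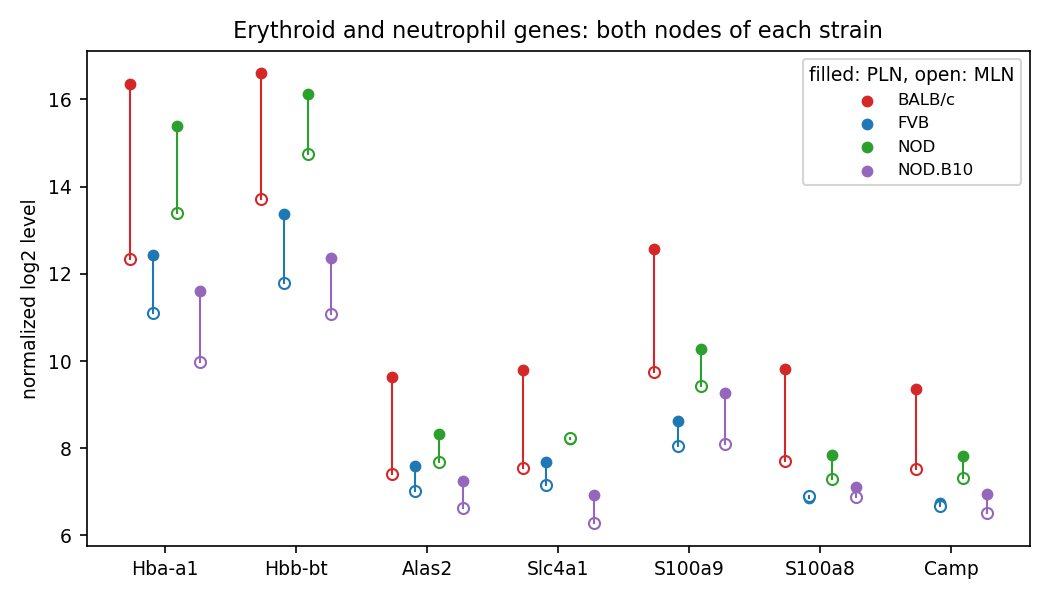
Normalized log2 level of 4 red cell genes and 3 neutrophil genes in PLN (filled) and MLN (open) of each strain, joined by a line whose length is the log2 ratio. The BALB/c PLN point is the highest of the 4 for every gene, while the BALB/c MLN points lie among or just above those of the other strains.

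The last 4 genes above the range belong to no list. Prl3a1, a placental hormone of the prolactin family, had ratios of 2.14, -0.11, 0.01 and -0.22, and was well above background in the PLN of BALB/c but in no other PLN, so that BALB/c PLN was at least 5.36-fold above FVB and at least 5.41-fold above NOD. It rests on 1 probe. Pard3, a cell polarity protein, had ratios of 1.53, -0.00, -0.02 and 0.23 on 1 of its 3 probes, and the probe least affected differed by -0.05 from the mean of the other strains. Mettl7a1 had 1.30, -0.10, 0.17 and -0.32. The fourth was an unnamed transcript.

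A separate set of genes stood apart in both nodes of BALB/c alike, which leaves no trace in the ratio. At least 2-fold above the range in both channels were 32 genes (0.115%), and at least 2-fold below in both 16 (0.0576%). These counts lean on NOD: without it the 48 became 704, while they became 105 without FVB and 55 without NOD.B10. With levels from the processed signal of the scanner software, less the 75th percentile of each channel, they were 499, and with levels not scaled between arrays 37.

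H2-Ea, the alpha chain of the MHC class II molecule I-E, which NOD mice are known to lack, had PLN levels of 10.42 in BALB/c, 7.49 in FVB, 6.03 in NOD and 6.23 in NOD.B10. Its MLN levels were 10.70, 7.61, 6.09 and 6.43. In both nodes BALB/c stood about 3 log2 units above FVB (2.93 and 3.09), and NOD and NOD.B10 were not well above background. BALB/c was at least 16.5-fold above NOD in PLN and at least 21.5-fold in MLN. Its ratio was near 0 in every strain (-0.28, -0.12, -0.06 and -0.20). H2-DMb1, a chain of the class II peptide loading molecule, had PLN levels of 13.33, 11.90, 10.85 and 11.96 and MLN levels of 13.32, 11.94, 10.88 and 11.81. Of 26 MHC genes measured, 3 were at least 2-fold above in PLN, 3 in MLN and 0 below in either. Among all genes, 0.22% were at least 2-fold above in PLN and 0.364% in MLN, and 0.0756% and 0.108% at least 2-fold below.

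Dok2, an adaptor of immune receptors, was 1.60 above every other strain in PLN and 1.70 in MLN, and Aurkaip1, a mitochondrial ribosome protein, 1.27 and 1.34. Jchain, which joins polymeric IgA and IgM, was 1.56 and 1.60 above on 1 probe, while its other probe had PLN levels of 11.15, 11.91, 10.23 and 11.55. Among the low genes, Isoc1 lay at -2.40 from the lowest other strain in PLN and at -2.47 in MLN, yet its second probe gave PLN levels of 8.99, 8.61, 8.96 and 8.49. Med1, a subunit of the Mediator complex, lay at -1.77 and -1.97 on 1 of 3 probes, and Pdpk1, a protein kinase, at -1.24 and -1.53 on 1 of 3. Ddx25, an RNA helicase, and Poli, a DNA polymerase, lay at -1.52 and -1.86 and at -1.31 and -1.23 on their only probe. In the 4 genes with several probes, Jchain, Isoc1, Med1 and Pdpk1, only 1 probe was thus 2-fold outside in both nodes.

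Markers of the nodes themselves and of lymphocytes lay close to the other strains. Aldh1a2, a retinoic acid producing enzyme, had ratios of -0.57, -0.83, -0.61 and -0.66, so that BALB/c MLN exceeded BALB/c PLN as in the other strains. Madcam1 had ratios of 0.22, -0.03, 0.29 and 0.35, Nkx2-3, its transcriptional activator, 0.01, -0.25, -0.68 and -0.01, and Cyp26b1, which degrades retinoic acid, 0.13, -0.16, -0.08 and 0.18. Cd3e of T cells had -0.07, 0.03, 0.24 and 0.44. None of these was outside the range by more than 0.10. Glycam1, a ligand of L-selectin on high endothelial venules, had 0.89, 0.31, 0.45 and 0.83, Lyve1 of lymphatic endothelium -0.30, -0.38, 0.14 and -0.44, and Marco, a macrophage scavenger receptor, -0.58, -0.16, -0.32 and -0.18. Aire, the regulator of tissue antigens, had 0.24, 0.05, 0.04 and 0.08, and Deaf1, a transcription factor linked to tissue antigens in the PLN, 0.15, 0.81, 3.31 and 0.77. For Deaf1 the BALB/c ratio lay at -0.62 from the range on the probe used, whereas the other probe differed from the mean of the other strains by -0.07.

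Adipose and interferon genes were shifted by less than 2-fold but in many members. Of 25 white adipose genes, 19 had a BALB/c ratio above the range and 0 below (23.6% and 22.8% of all genes), and 0 were 2-fold outside. Their median ratio was 0.34 in BALB/c, -0.41 in FVB, 0.24 in NOD and -0.11 in NOD.B10. Adipoq, the fat hormone adiponectin, had 0.23, -0.80, 0.09 and -0.11. The BALB/c PLN level was the highest of the 4 for 20 of the 25 genes and the MLN level for 16, against 29.8% and 29.1% of all genes. Of 32 type I interferon response genes, 23 were above the range and 0 below, against the same 23.6% and 22.8%. Their median ratio was -0.08 in BALB/c, -0.09 in FVB, -0.65 in NOD and -0.46 in NOD.B10. By these medians BALB/c and FVB were near equality of the nodes, and in the NOD strains the MLN was higher than the PLN. For 19 of the 32 genes the BALB/c PLN level was the highest of the 4, against 29.8% of all genes, and for 1 the lowest. The median PLN level was 8.18 in BALB/c, 7.37 in FVB, 7.64 in NOD and 7.63 in NOD.B10. In MLN, BALB/c lay inside the range for 27 of the 32, above it for 2 and below it for 3. Isg15, an induced ubiquitin-like protein, had 0.01, -0.26, -1.86 and -0.79, and Iigp1, an interferon-induced GTPase, -0.20, -0.43, -0.46 and -0.52. Ribosomal protein genes had a median ratio of -0.15 in BALB/c and -0.16 to -0.10 in the others.

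**Figure D5:**
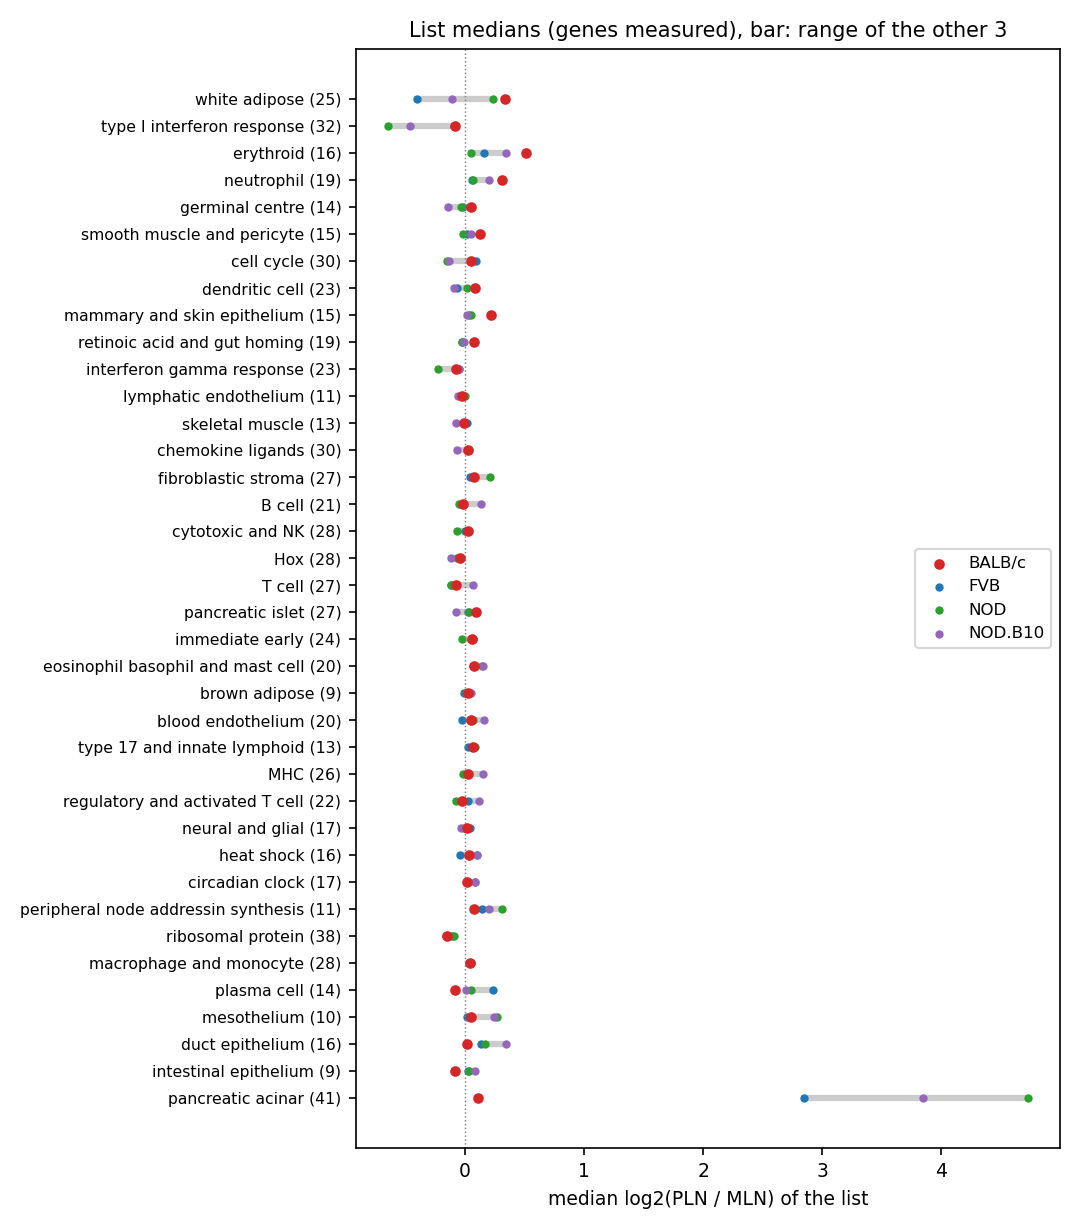
Median log2 ratio of PLN to MLN in each of the 38 gene lists, by array, ordered by BALB/c minus the mean of the other 3, with the number of genes measured in brackets and a grey bar over the range of the other 3. The acinar list is the only one in which BALB/c lies more than 1 from the others. The erythroid, neutrophil and white adipose medians of BALB/c lie above the bar. So do those of several further lists, such as mammary and skin epithelium, smooth muscle and pericyte, dendritic cell and pancreatic islet.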

How the data were processed

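The deposited files are spot tables of Agilent Feature Extraction 8.5.1.1, whose means per spot and local background are intensity values, per the file headers. The software's LogRatio, a log10 value of Cy5 against Cy3 after its own dye normalization per the file headers, is 0 for 12.2% to 23.2% of probes. Saturation, outlier and background marks are 0 or 1 in the deposited files, where they serve as a score per spot. The authors' table of log2 values, deposited for the series, equals the log2 of Cy5 against Cy3 processed signal less a constant per array (r of 0.9999 or more, column medians 0.0098 to 0.0935).

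Background was corrected by normexp (offset 50), arrays were normalized by loess, and levels were scaled by Aquantile over the 7 arrays, using limma (version 3.58.1) under R 4.3.3 with the package data.table, version 1.17.8. Further steps used Python 3.11.15 with numpy 2.4.6 and pandas 2.3.3. Control and outlier spots had weight 0, and outlier spots were left out. Probes entered if at least 2 of the 4 arrays had them well above background for Cy5 or Cy3 (33224 of 41174 probes, 80.7%). Of all probes 22072 were named by accession and 1471 by description through a RefSeq table of GRCm38.p6, and 17631 had no symbol. The brightest probe stood for a gene. A difference between nodes within an array includes any dye effect of the gene, since no dyes were swapped. Some results are not reported here. No source used here says how the mice of a pool were chosen.

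Named genes were the 10 farthest above and the 10 farthest below the range, the 5 most extreme in each direction in both channels, the 2 members of each of 38 lists farthest outside by at least 2-fold, and 20 fixed genes, of which Mki67 was not measured here. They needed a symbol, a spot without an outlier mark on each of the 4 arrays (saturation did not exclude a gene) and a BALB/c signal above background. Other genes in the text (Reg2, Reg3g, Cel, Cela1, Cela2a, Ptf1a, Rbpjl, Bhlha15, Iapp, Nupr1, Mt2, Alb, Car2, Mpo, Ltf, Mettl7a1, Ppp1r14c, Terc, Syt6 and Cpb2) were chosen after their values were seen, and so were the motifs. The members, lists and limits were chosen with earlier results of these data known. The rule was tested on simulated data before use.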

Additional observations from a re-analysis of the deposited data

Results flagged for a closer look

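Some results were marked because the BALB/c log2 ratio of PLN to MLN had the opposite sign to that of FVB, NOD and NOD.B10 alike. With 1 array per strain the difference between strains was not tested. Among the genes named, the BALB/c ratio was below 0 and the others above 0 for the acinar genes Reg1 (-0.38), Amy1 (-1.52), Prss3 (-0.88), Try5 (-0.090), Cela3b (-0.67), Gp2 (-0.072), Sycn (-0.61) and Cpa1 (-0.38), and for Dok2 (-0.064) and Cd3e (-0.071). For Amy1, Prss3, Try5, Cela3b, Sycn and Cpa1 the BALB/c PLN spot was saturated, so that the BALB/c value is a lower limit. The ratio was above 0 in BALB/c and below 0 in the others for Isg15 (0.0068) and Nkx2-3 (0.0069). Among the list medians, intestinal epithelium (-0.085) and plasma cell (-0.085) were below 0 in BALB/c alone, and germinal centre (0.053) and retinoic acid and gut homing (0.079) above 0 in BALB/c alone.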

How the results depend on the processing

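Each strain was 1 pool on 1 array, so the spread between mice and between arrays of BALB/c is unknown. The 13 genes above and the 57 below the range became 375 and 157 with a normexp offset of 0, 496 and 299 with the LogRatio, 677 and 319 with the deposited values, and 34 and 142 against NOD alone, and median centring gave 25 above. All 13 and all 57 were among those called under these settings, except that median centring kept 44 of the 57. Fewer comparison arrays can only widen these calls. Leaving out 1 of the other arrays gave 14 to 18 genes above and 62 to 78 below. Genes attributed to the PLN (11) became 53 with offset 0, 19 with median centring, 104 with the LogRatio setting and 76 against NOD alone, and 13 to 21 with 1 array left out. Genes attributed to the MLN (46) became 180, 38, 279 and 19 in the same order, 28 without saturated probes, 25 with unscaled levels, and 41 to 65 with 1 array left out. Genes outside in both channels (48) became 170, 30, 499 and 145 in that order, 499 with processed signals, and 55 to 704 with 1 array left out.

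For the acinar list, saturated probes left out gave 15 genes below the range, a median ratio of -2.75 and a median MLN level of 1.58 relative to the other strains. With 1 array left out the median ratio was -4.17 to -3.33, the MLN level 2.49 to 3.69 and the count 32 to 34. Median centring gave a BALB/c acinar median of 1.25. Why these values moved was not tested, beyond the fewer probes or arrays that a setting uses. Of 3510 other values, 674 moved by more than the spread of the other 3 arrays. A change of sign was looked for only in ratios at least 2-fold outside the range and in levels outside in both channels. There it was found in 0. Other levels could change sign. Relative to the mean of the other strains, Pard3 in PLN went from 1.87 to as low as -0.0027, and Prl3a1 in MLN from 0.33 to -0.90. No paired analysis was possible because each strain has 1 array, whose channels are compared within it.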
